A study of Drosophila melanogaster with 2 samples.

Results

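The 8 genes described here encode heat shock proteins of Drosophila melanogaster: Hsp22, Hsp23, Hsp26, Hsp27 and Hsp67Ba, 5 small heat shock genes that lie together on chromosome arm 3L, and Hsp68, Hsp83 and Hsp60A, 3 large chaperone genes at separate loci. They were chosen by name from the 13945 protein-coding genes annotated on 6 chromosome arms of build dm6, and the rule names no measured value. The data are ChIP-seq peak lists of fd3F, a forkhead transcription factor, from whole embryos aged 8 to 18 h. The embryos came from a transgenic line that stably carries fd3F fused at its C-terminus to GFP, and an anti-GFP antibody was used for the precipitation. The samples form 1 group of 2 biological replicates, numbered 1 and 3, with no heat treatment named in the labels. The promoter of the tagged gene is not given in the sources used here, and the control named by the labels was not analysed here. The design therefore holds no contrast between conditions, and the question addressed is where the summits of both replicates fall at these 8 genes.

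Heat shock proteins are molecular chaperones that bind unfolded proteins and keep them from aggregating or help them to fold. After heat or other stress, heat shock factor (HSF) binds heat shock elements, which are inverted repeats of a short unit around the word GAA, and the genes are transcribed strongly within minutes. In Drosophila several heat-inducible promoters are held open before stress by GAGA factor and a paused RNA polymerase. The small Hsp genes are also switched on during development, partly by the hormone ecdysone.

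Peaks came in 4 lists: those of replicate 1, of replicate 3 and of both pooled, with 30000 peaks each, and a reproducible list of 3917 peaks, which were the 3917 highest peaks of the pooled list. Each value below is the peak signal deposited by the authors. Its scale differs from list to list, so each is given with its rank by signal in that list (rank 1 is the highest). The lists carry no read counts, so the depth is unknown. In whole embryos a strong signal in few cells and a weak signal in many cells cannot be told apart.

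Of the 8 heat shock genes, 7 had a reproducible summit in the gene body extended by 5 kb on each side, as did 45.9% of the 13945 protein-coding genes. They were all 5 small Hsp genes, Hsp83 and Hsp68, and the exception was Hsp60A. Within 1000 bp of a start site, 5 of the 8 had a reproducible summit (Hsp22, Hsp26, Hsp27, Hsp68 and Hsp83), against 20.8% of all genes. Taking only the 3917 highest peaks of replicate 1, 6 genes had a summit in the extended gene body (45.3% of all genes) and 3 at a start site (20.1%). With the 3917 highest of replicate 3 the counts were 8 (45.9%) and 6 (21.3%). In the whole pooled list they were 8 (84.1%) and 7 (58.4%), so at that depth of list most genes of any kind had a summit.

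These counts hold fewer separate binding places than genes. The windows of the small Hsp genes overlap, and the 7 genes shared 8 distinct reproducible summits, 4 in the small Hsp window and 4 in the windows of Hsp83 and Hsp68. Of the 8 summits, 5 had a heat shock gene as the nearest start site of any gene. The other 3 were nearest to Fdx1, SMC1 and gry. Hsp23 and Hsp67Ba were counted only through summits nearest to their neighbours Hsp26 and Hsp27 (for Hsp67Ba also Hsp22), and Hsp68 only through the summit at the SMC1 promoter.

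Hsp27 (FBgn0001226, chr3L:9384063-9385694, + strand), a small heat shock protein with a role as a stress chaperone and in development, had the highest peak of the group. The peak (chr3L:9383760-9384062) had a signal of 386 and rank 189 in replicate 1, 337 and rank 238 in replicate 3, and 722 and rank 213 in the pooled list. Its summit at position 9383905 was intergenic, 158 bp upstream of the start site. The replicate summits were 18 bp apart, at 158 and 140 bp upstream, so both embryo collections placed the peak at the Hsp27 promoter. A second, weak peak in the Hsp27 coding exon had signal 28.7 and rank 27001 in the pooled list and rank 23796 in replicate 1, and replicate 3 held none.

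Hsp26 (FBgn0001225, chr3L:9376418-9377427, - strand), a small heat shock protein whose promoter is a textbook case of an open, GAGA-bound promoter before heat shock, had the next highest start-site peak of the cluster. The peak (chr3L:9377466-9377641) had a signal of 151 and rank 1098 in replicate 1, 107 and rank 1725 in replicate 3, and 263 and rank 1298 in the pooled list. The pooled summit at 9377550 was intergenic and 123 bp upstream of the outer start site, and the replicate summits were 37 bp apart. The Hsp26 peak was lower than the Hsp27 peak in both replicates and in the pooled list.

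The sequences under these summits are shown because the pooled Hsp26 summit falls on a heat shock element and the pooled Hsp27 summit does not. They are from the Release 6 (dm6) genome sequence of RefSeq, read along the strand of the gene: the Hsp27 window is chr3L:9383705-9384004 (+ strand) and the Hsp26 window chr3L:9377450-9377650 (- strand). Capitals mark matches to the heat shock element of 2 inverted units, GAANNTTC or TTCNNGAA.
Hsp27 summit: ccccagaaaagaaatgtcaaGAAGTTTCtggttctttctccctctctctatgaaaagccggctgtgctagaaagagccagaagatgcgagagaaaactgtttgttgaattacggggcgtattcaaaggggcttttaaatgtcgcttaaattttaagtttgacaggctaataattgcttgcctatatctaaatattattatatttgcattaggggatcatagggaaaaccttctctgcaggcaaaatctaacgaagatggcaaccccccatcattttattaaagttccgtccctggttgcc
Hsp26 summit: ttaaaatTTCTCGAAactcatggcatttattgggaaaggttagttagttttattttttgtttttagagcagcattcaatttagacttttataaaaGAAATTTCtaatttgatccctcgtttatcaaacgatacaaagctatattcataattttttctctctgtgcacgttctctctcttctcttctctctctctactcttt
The centre of the second match in the Hsp26 window was 1.5 bp from the pooled summit, and the first was 89.5 bp from it. The second match spans 9377548-9377555. The replicate summits lay outside it, at 9377525 in replicate 1 and 9377562 in replicate 3. In the Hsp27 window the nearest match was centred 176.5 bp upstream of the summit. The Hsp26 window also held 6 matches of GAGAG, the word bound by GAGA factor, all within 100 bp of the summit on the side of the gene.

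Hsp22 (FBgn0001223, chr3L:9372931-9374964, + strand), the small heat shock protein of mitochondria, had the lowest reproducible peak of the 8, close to the end of the list at signal 115. The peak (chr3L:9373314-9373689) had a signal of 59.3 and rank 4383 in replicate 1, 59.5 and rank 3677 in replicate 3, and 119 and rank 3766 in the pooled list. The signals of the replicates were alike, but in replicate 1 the peak fell outside the 3917 highest. The summit at 9373502 was 495 bp upstream of the second Hsp22 start site at 9373997 and 571 bp downstream of the first at 9372931. It lay in the annotated 5′ UTR of the longer Hsp22 transcript and in the 3′ UTR of CG4456, the gene also called Hsp67Bb, which shares the first start site. At that first start site replicate 1 had a peak of signal 50.4 and rank 5639, the pooled list one of signal 38.6 and rank 17484, and replicate 3 none.

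Hsp23 (FBgn0001224, chr3L:9381882-9382765, + strand), a cytoplasmic small heat shock protein, had no reproducible summit at its own start site. Its only peak within 1000 bp of the start site lay in the coding exon. That peak had a signal of 17.4 and rank 21201 in replicate 3 and 27.4 and rank 28769 in the pooled list, with deposited q-values of 0.537 and 0.607, and replicate 1 held none. The nearest reproducible summit to the Hsp23 start site was the Hsp27 summit, 2023 bp away. Hsp67Ba (FBgn0001227, chr3L:9377802-9379534, - strand), a gene of the same family and cluster, had no summit within 1000 bp of its start site in any of the 4 lists. The reproducible summit nearest to that start site was that of Hsp26, 1984 bp away.

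The Hsp23 promoter is shown because it held 2 heat shock elements and no summit of any list. The 250 bp upstream of the start site (chr3L:9381632-9381881, + strand, dm6, RefSeq) are printed with the matches in capitals.
Hsp23 upstream: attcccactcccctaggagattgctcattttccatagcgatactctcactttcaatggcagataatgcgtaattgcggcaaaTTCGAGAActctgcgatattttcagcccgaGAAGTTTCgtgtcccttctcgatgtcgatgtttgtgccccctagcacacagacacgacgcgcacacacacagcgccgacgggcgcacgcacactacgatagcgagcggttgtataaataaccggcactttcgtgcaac
Hsp26 also held 2 such matches in the 250 bp upstream of each of its 2 start sites, and had a summit there in these 4 lists. GAGAG had 6 matches upstream of each Hsp26 start site and 1 upstream of Hsp23. These stretches were compared after values were seen, and a relation of words to peaks was not tested.

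The fourth reproducible summit of the small Hsp window belonged by position to Fdx1, a gene for a ferredoxin, an iron-sulfur electron carrier. The peak (chr3L:9370988-9371363) had signal 81.6 and rank 2755 in replicate 1, 48.7 and rank 4579 in replicate 3, and 132 and rank 3309 in the pooled list. Its summit lay 62 bp inside the nearest Fdx1 start site and 1755 bp from the first Hsp22 start site. The summits of the replicates were 77 bp apart, the widest gap among the 8 reproducible summits. In the map of the small Hsp cluster the reproducible summits sit just upstream of Hsp27 and Hsp26, between the Hsp22 start sites and at Fdx1. A long stretch over Hsp67Ba and Hsp23 holds weak summits or none.

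**Figure D1:**
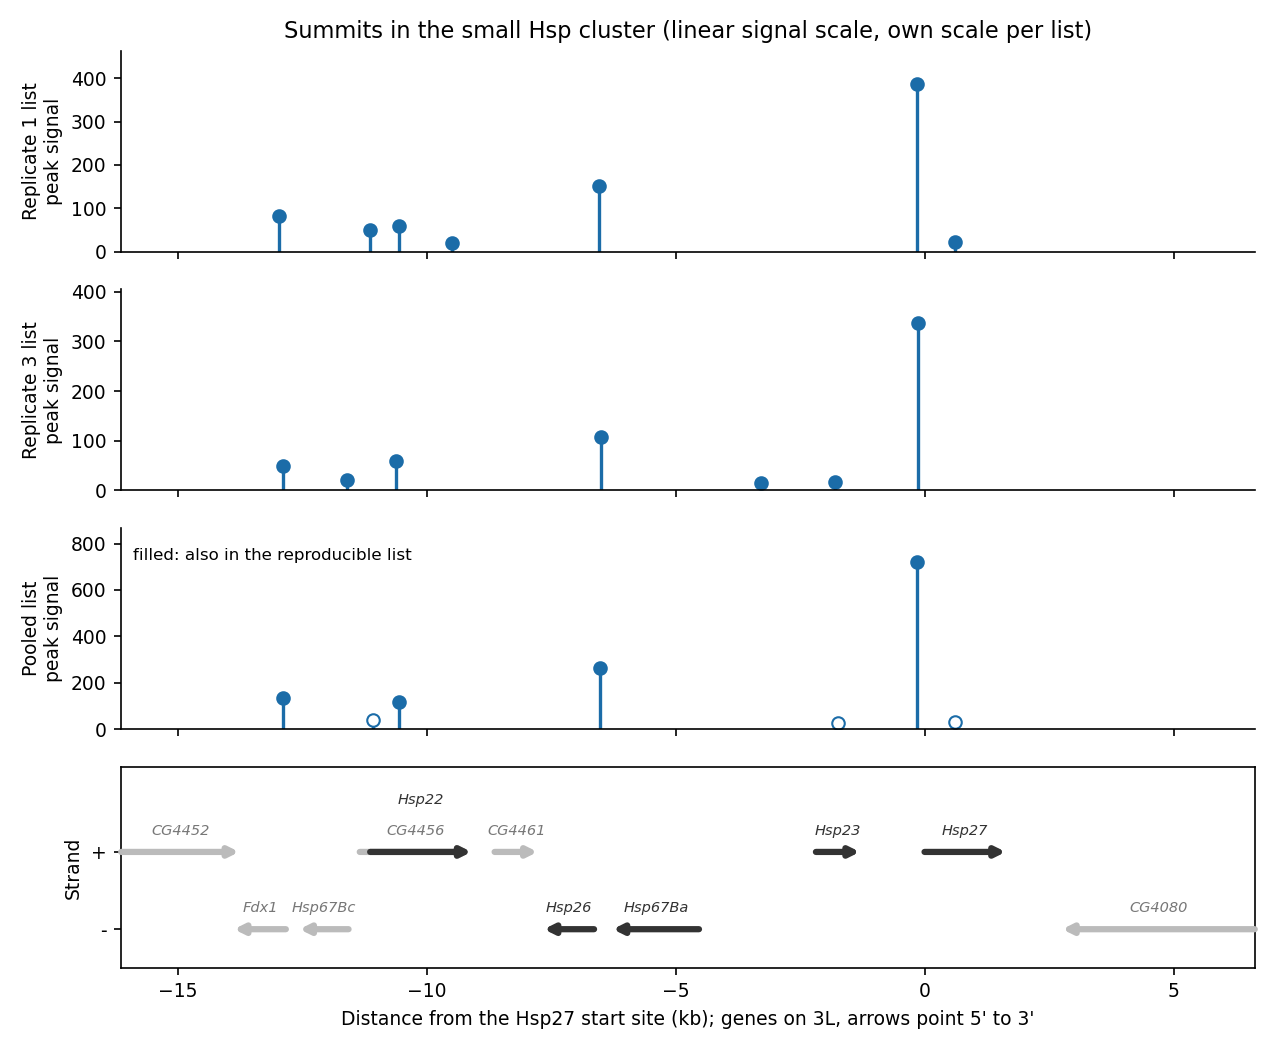
Peak signal (y axes, linear, each list on its own scale) of every summit in the small Hsp window against the distance from the Hsp27 start site in kb (x axis), for the replicate 1, replicate 3 and pooled lists; filled points of the pooled row are also in the reproducible list, and arrows show protein-coding genes by strand (dark: the 5 small Hsp genes). The Hsp27 summit is the highest in every row, with signals of 386, 337 and 722.

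Hsp83 (FBgn0001233, chr3L:3192969-3197059, + strand), the Drosophila Hsp90 that many kinases and nuclear receptors need to mature and that is expressed without heat, had 2 reproducible summits. The first peak (chr3L:3192950-3193242) had signal 220 and rank 547 in replicate 1, 216 and rank 564 in replicate 3, and 432 and rank 555 in the pooled list. Its summit at 3193097 lay in the 5′ UTR, 128 bp downstream of the first start site and 119 bp upstream of the second, and the summits of the replicates were 14 bp apart. The second peak (chr3L:3194125-3194409) was in an intron, with its summit at 3194246, 1030 bp downstream of the second start site. It had signal 302 and rank 303 in replicate 1, 250 and rank 428 in replicate 3, and 552 and rank 345 in the pooled list. The intronic peak was the higher of the pair in both replicates, and both Hsp83 peaks were lower than that of Hsp27 and higher than that of Hsp26 in each list.

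The Hsp83 intron is printed because its peak ranked above the one at the gene start. The window is chr3L:3194126-3194346 (+ strand, dm6, RefSeq), and capitals mark a heat shock element and, as AAACA on this strand, the forkhead core word TGTTT.
Hsp83 intron summit: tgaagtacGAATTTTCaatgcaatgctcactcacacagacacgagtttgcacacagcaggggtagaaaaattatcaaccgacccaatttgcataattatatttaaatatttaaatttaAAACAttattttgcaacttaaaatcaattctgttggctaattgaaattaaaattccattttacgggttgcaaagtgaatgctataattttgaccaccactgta
The forkhead core (3194244-3194248) lay on the pooled summit and on that of replicate 1, while the replicate 3 summit was at 3194268. The heat shock element was centred 108.5 bp upstream of the pooled summit. The window of the Hsp83 start summit held 1 heat shock element and no TGTTT within 100 bp.

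The other reproducible summit in the Hsp83 window lay at the neighbouring gene gry (gryzun), 55 bp downstream of the gry start site and 5929 bp from the nearest Hsp83 start site. The peak (chr3L:3198957-3199332) had signal 79.7 and rank 2858 in replicate 1, 123 and rank 1433 in replicate 3, and 206 and rank 1843 in the pooled list. Among the 8 reproducible summits it had the widest rank difference between replicates, a ratio of 1.99. Between Hsp83 and gry, the pooled list held 2 lower peaks nearest to the start of CG14966, at ranks 7965 and 15330.

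Hsp68 (FBgn0001230, chr3R:24055080-24057310, - strand), a heat-inducible member of the Hsp70 family, had 1 reproducible summit within 1000 bp of its start site, and that summit was closer to another gene. The peak (chr3R:24058036-24058411) had signal 52.5 and rank 5299 in replicate 1, 73.9 and rank 2840 in replicate 3, and 144 and rank 2988 in the pooled list. Its summit at 24058224 lay 914 bp upstream of Hsp68 and 63 bp upstream of SMC1, which encodes a cohesin subunit and is transcribed in the opposite direction. Nearer to the Hsp68 start site each replicate held only a weak peak at another place, replicate 1 at rank 14119 and 282 bp upstream and replicate 3 at rank 23066 and 198 bp downstream. The pooled list had no summit between these positions, so no peak at the Hsp68 start was shared by the replicates.

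Both Hsp68 sequences are shown because the heat shock elements and the summit lay in different places. The first is the 250 bp upstream of the Hsp68 start site (chr3R:24057311-24057560), with heat shock elements in capitals. The second is the window of the SMC1 summit (chr3R:24058124-24058285), with TGTTT or its complement AAACA in capitals. Both are from the - strand of dm6 (RefSeq).
Hsp68 upstream: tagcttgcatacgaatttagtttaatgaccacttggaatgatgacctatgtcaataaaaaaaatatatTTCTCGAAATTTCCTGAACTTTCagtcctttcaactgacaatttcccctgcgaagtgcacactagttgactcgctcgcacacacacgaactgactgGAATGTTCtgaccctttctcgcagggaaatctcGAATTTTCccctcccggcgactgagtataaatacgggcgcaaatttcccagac
Hsp68-SMC1 summit: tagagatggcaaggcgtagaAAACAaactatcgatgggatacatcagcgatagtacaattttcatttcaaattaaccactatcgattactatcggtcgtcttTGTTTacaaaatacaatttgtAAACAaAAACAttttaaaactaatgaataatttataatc
The Hsp68 promoter held 6 matches of the 2-unit element, several of which overlap, and 3 matches of the element of 3 alternating units, in which another inverted unit follows at the same spacing, so that each contains 2-unit matches. Among the 8 genes Hsp68 alone had a 3-unit match upstream, and it had no reproducible summit there. The SMC1 window held 4 forkhead core words within 100 bp of the summit, and 2 of them were part of the longer forkhead word TGTTTAC.

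Hsp60A (FBgn0015245, chrX:11108482-11112308, + strand), the mitochondrial chaperonin subunit, had no reproducible summit in its window, and the nearest one lay 27119 bp from its start site. Its highest pooled peak (chrX:11108142-11108517), with the summit 152 bp upstream of the first start site, had signal 99.9 and rank 4641, below the last reproducible peak. In replicate 1 it had signal 34.8 and rank 10802, and in replicate 3 signal 70.7 and rank 2994. The replicates therefore disagreed on this peak, which was among the 3917 highest of replicate 3 and far below them in replicate 1. The summits were still close, at 142 bp upstream in replicate 1 and 170 bp upstream in replicate 3. An intronic peak of Hsp60A ranked 5405 in replicate 1, 6056 in replicate 3 and 5578 in the pooled list, with signals of 51.8, 38.7 and 85.9. Its pooled summit lay 563 bp upstream of the second Hsp60A start site, so it also counts as a start-site peak.

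The Hsp60A promoter is printed because, of the 12 heat shock start sites, it alone held GGTCACAC upstream. The 250 bp upstream of the first start site (chrX:11108232-11108481, + strand, dm6, RefSeq) held 1 match of that word of the promoter factor M1BP, in capitals. They held no heat shock element and no GAGAG, which was also so for Hsp27, Hsp67Ba and the first Hsp83 start site. The second Hsp60A start site had 1 heat shock element of 2 units upstream.
Hsp60A upstream: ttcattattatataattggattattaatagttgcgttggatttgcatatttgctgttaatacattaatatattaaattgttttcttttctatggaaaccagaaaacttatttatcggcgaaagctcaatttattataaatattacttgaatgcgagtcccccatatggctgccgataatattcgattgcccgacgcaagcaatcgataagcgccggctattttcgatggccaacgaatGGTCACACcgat
Of the upstream 250 bp of all 19607 protein-coding start sites, 3.83% held that word.

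**Figure D2:**
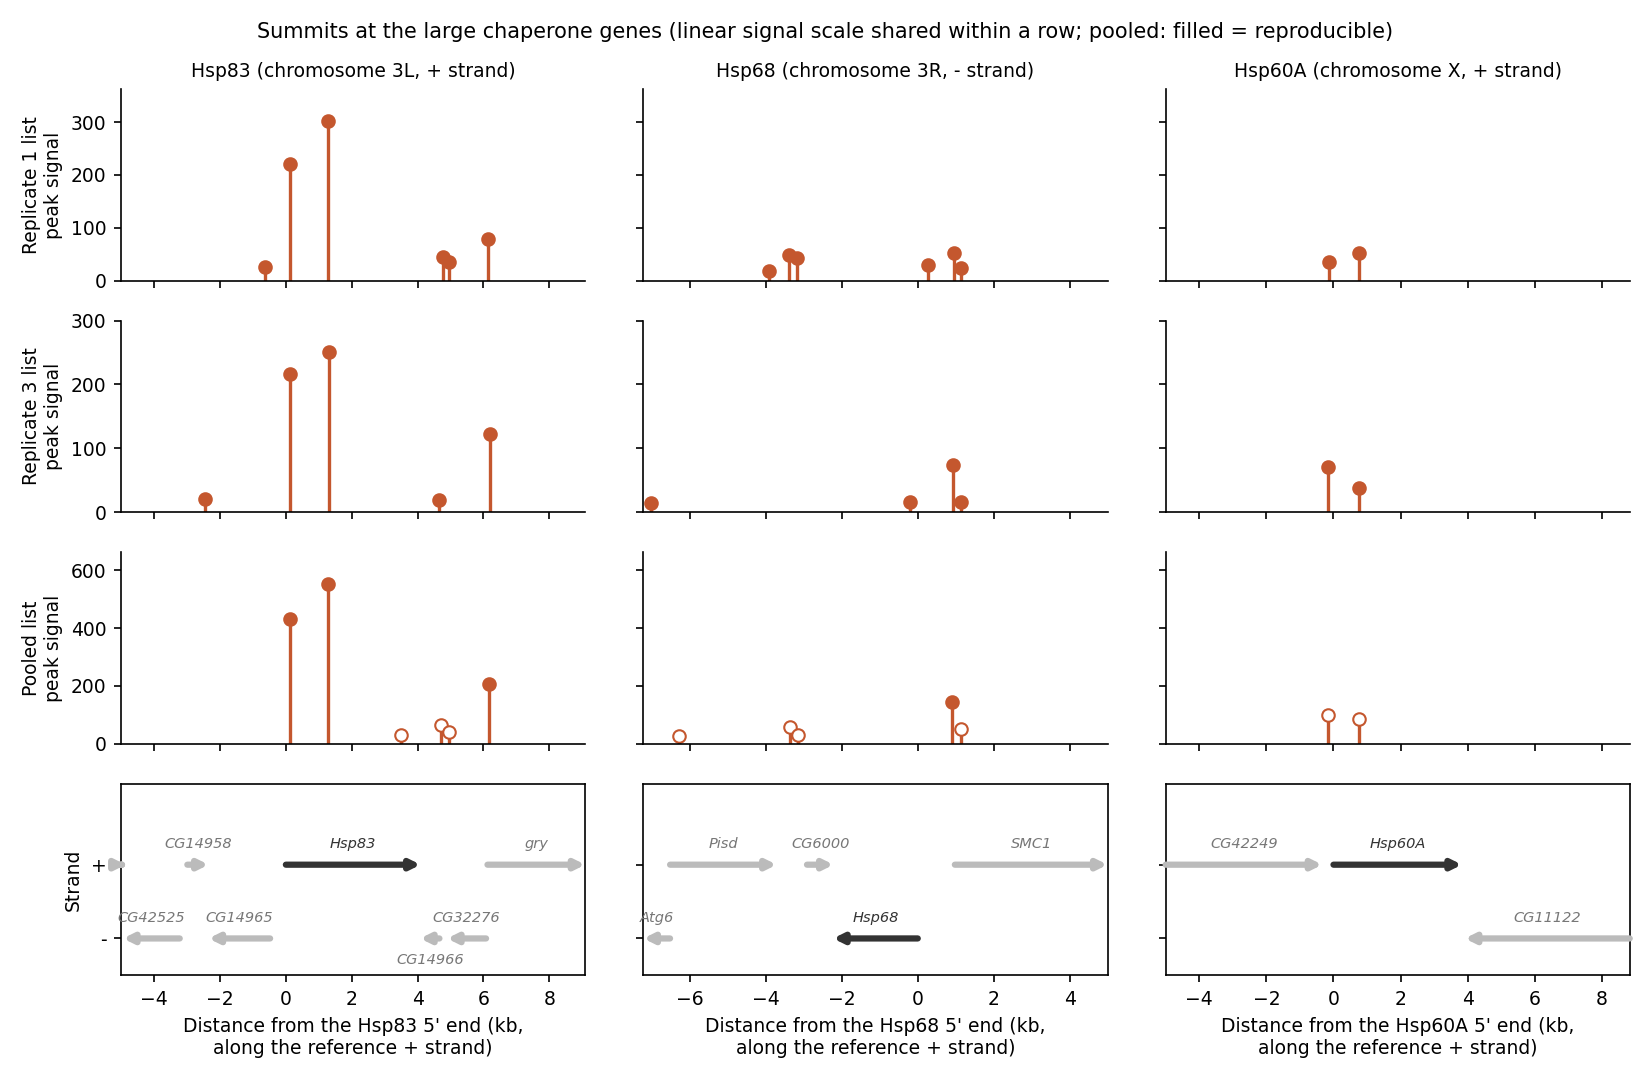
Peak signal (y axes, linear, shared along each row) of every summit in the windows of Hsp83, Hsp68 and Hsp60A against the distance in kb from the 5′ end of each gene along the reference + strand (x axes), for the replicate 1, replicate 3 and pooled lists; filled points of the pooled row are also in the reproducible list. Hsp83 has 2 high summits in every row, the Hsp68 window has its highest summit at the SMC1 start, and Hsp60A has 2 open points in the pooled row.

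The small Hsp cluster and the large chaperones were compared by counts. The small Hsp window of 22.8 kb held 4 reproducible summits, or 1.76 per 10 kb, and the 3 large chaperone windows of 40.1 kb in all held 4, or 0.996 per 10 kb. The 6 arms together had 0.293 per 10 kb, counting all sequence and not only windows around genes. The small Hsp window also counts overlapping flanks once, while each large chaperone gene has its own flanks. The difference between small and large windows changed in size and direction with the list used. In the whole pooled and replicate 1 lists the small Hsp window had the lower density. With the 3917 highest peaks of replicate 3 the densities were 1.32 (3 summits) and 1.25 (5 summits). With those of replicate 1 they were 1.32 (3 summits) and 0.747 (3 summits). With whole lists the densities were close, at 3.08 and 3.24 per 10 kb in the pooled list, 3.08 and 3.49 in replicate 1 and 3.08 and 2.74 in replicate 3, where the arms had 2.24. Summits and loci are not replicates, so this difference was not tested. The nearest start site was that of a heat shock gene for 3 of the 4 reproducible summits of the small Hsp window and for 2 of the 4 in the large chaperone windows, and for 5 of 7 and 4 of 13 in the pooled list.

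The order of the start-site peaks in the pooled list was Hsp27 at rank 213, Hsp83 at 555, Hsp26 at 1298, Hsp68 (the SMC1 summit) at 2988, Hsp22 at 3766, Hsp60A at 4641 and Hsp23 at 28769. The order of the first 3 was the same in replicate 1 and in replicate 3. The order of the rest was not. Hsp22 came before Hsp68 in replicate 1 and after it in replicate 3. The upstream Hsp60A peak, at 4641 in the pooled list, stood at 10802 in replicate 1, after both, and at 2994 in replicate 3, before Hsp22. In replicate 1 the best start-site peak of Hsp60A was instead the intronic one, at 5405, also after both. Hsp68 stood before the upstream Hsp60A peak in both replicates, at 5299 in replicate 1 and 2840 in replicate 3. The place of Hsp22 relative to Hsp68 and Hsp60A therefore depended on the replicate.

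The peaks of the heat shock windows matched between replicates to a degree near that of other peaks. Of the 20 pooled summits, 13 (65.0%, exact Clopper-Pearson 95% interval 40.8 to 84.6%, counting error only) had an interval that overlapped a peak of both replicates by at least 1 bp, against 52.4% of the whole pooled list. The share was 4 of 7 in the small Hsp window and 9 of 13 in the large chaperone windows. Among the latter, the summits at chr3L 3197670 and 3197932 overlapped the same replicate 3 peak, at rank 17055. Summits are not independent draws, so the interval gives no spread between replicates. All 8 reproducible summits were matched, as were 98.3% of the reproducible list, and 5 of the 12 lower ones (41.7%), as were 45.5% of all lower pooled peaks. For the 8 reproducible summits the ratio of the larger to the smaller replicate rank had a median of 1.49 (1.03 at the Hsp83 start to 1.99 at gry), where the 3852 matched reproducible peaks had a median of 1.36 and an upper quartile of 1.73. Their replicate summits lay a median of 33 bp apart, against 25 bp.

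The Hsp60A start peak stood out among the heat shock peaks with a rank ratio of 3.61. Among the next 3917 pooled peaks below the reproducible list, 3560 were matched in both replicates, and their ratio had a median of 1.69, an upper quartile of 2.59 and a 95th percentile of 5.21. The Hsp60A intron, with a ratio of 1.12, showed no such gap.

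**Figure D3:**
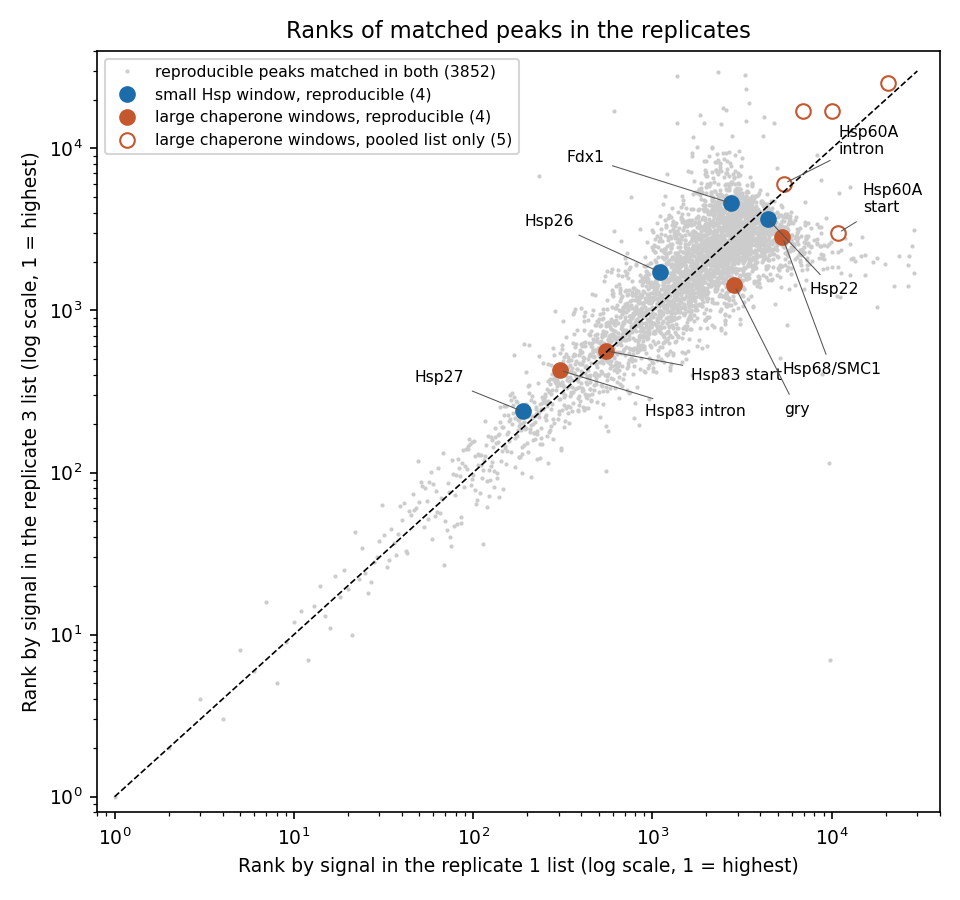
Rank by signal in the replicate 3 list (y axis) against rank in the replicate 1 list (x axis), both on log scales with 1 the highest, for pooled peaks matched in both replicates; grey points are the 3852 matched reproducible peaks, filled points the heat shock windows' reproducible summits, open points their lower pooled summits, and the dashed line marks equal ranks. Hsp27 and both Hsp83 peaks lie near the line at ranks from 189 to 564, and the Hsp60A start lies far to the right of it, at 10802 in replicate 1 and 2994 in replicate 3.

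Heat shock elements were counted upstream of the 8 genes and around the 8 reproducible summits, 3 of which were nearest to neighbouring genes. These windows differ in length and place, so their counts are not set against each other. Within 100 bp, the 2-unit element was found at 2 of the 8 reproducible summits (Hsp26 with 2 matches and the Hsp83 start with 1), and at 9.80% of all 3917 reproducible summits. Within 250 bp the 2-unit element was found at 4 of the 8 (Hsp27, Hsp26 and both Hsp83 summits), against 22.1%. It was not found there at the summits of Hsp22, Fdx1, SMC1 and gry. The 3-unit element was found within 100 bp of none of the 8 and at 0.255% of all. In the 250 bp upstream of start sites, the 2-unit element was found for 6 of the 8 genes (7 of 12 start sites) and for 13.2% of all 19607 protein-coding start sites. Hsp27 and Hsp67Ba had none in that stretch. Both strands were searched, matches may overlap, and a match is a description of these letters only.

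Forkhead words were about as frequent at these summits as over the list. TGTTT was present within 100 bp of 6 of the 8 summits, against 71.1% of all, and within 250 bp of all 8, against 94.7%. The nearest match was centred 101 bp from the Hsp27 summit and 132 bp from the Hsp83 start summit, the pair without one inside 100 bp. The longer TGTTTAC, which contains TGTTT, was present at 1 summit, that of SMC1 upstream of Hsp68, within 100 bp, against 7.43% of all. In the 250 bp upstream of the 12 heat shock start sites TGTTTAC was found at none, against 6.93% of all start sites, and TGTTT at 7, against 71.8%.

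The other promoter words were counted in the same windows. Within 100 bp GAGAG was found at the Hsp26 summit alone (18.4% of all summits), and within 250 bp at 4 of the 8, those of Hsp27, Hsp26, gry and Hsp22 (48.9% of all). It was found upstream of 5 of the 12 start sites, those of Hsp22, Hsp23 and Hsp26 (29.1% of all start sites). The TATA word TATAAA was found upstream of 11 of the 12 start sites, Hsp67Ba being the exception (39.5% of all), and within 100 bp of 4 of the 8 summits (40.0% of all). TATCGATA, the word of the replication-related element, was found within 100 bp of the Fdx1 summit (2.78% of all summits) and upstream of the first Hsp83 start site (6.91% of start sites). GGTCACAC was found within 100 bp of none of the 8 summits (1.56% of all).

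**Figure D4:**
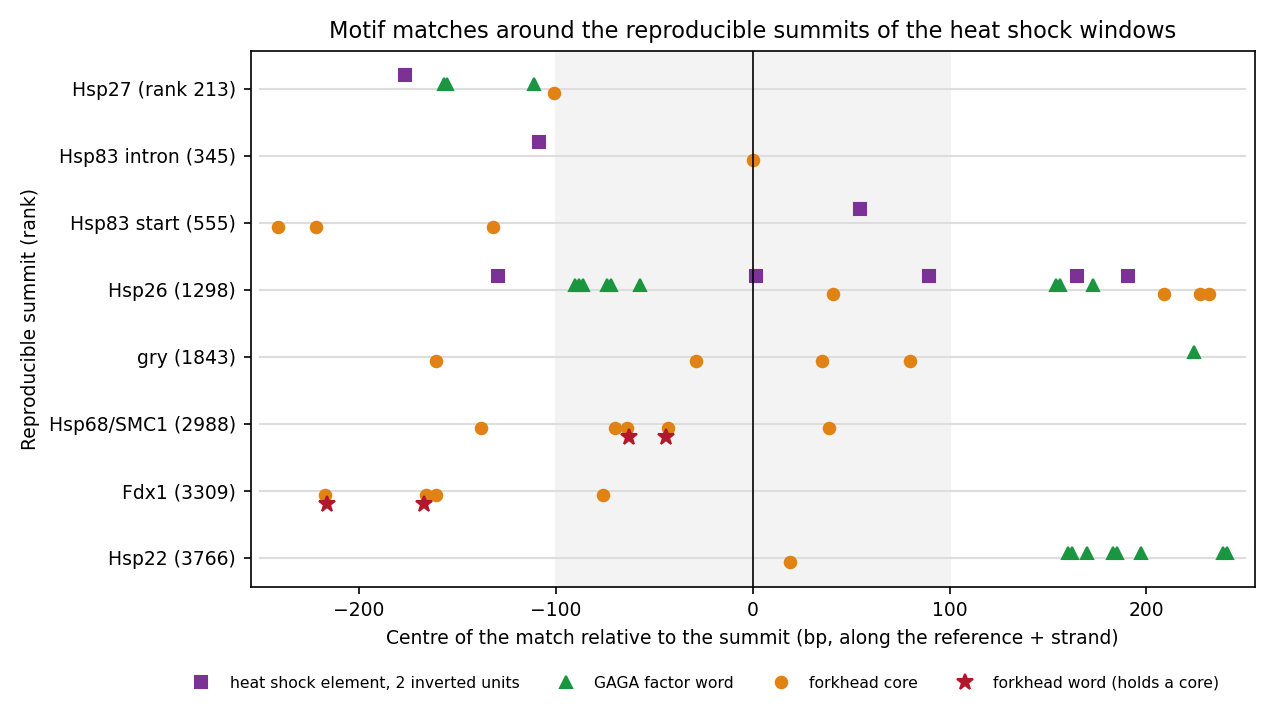
Position of motif matches (x axis, bp from the summit along the reference + strand) within 250 bp of the 8 reproducible summits of the heat shock windows, in order of pooled rank (y axis); the grey band marks 100 bp on each side. Distances are from the pooled summits, and replicate summits differ from these. A heat shock element lies 1.5 bp from the Hsp26 summit, the nearest to the Hsp27 summit is 176.5 bp away, and a forkhead core lies on the Hsp83 intron summit.

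The base composition of the summit windows (201 bp) ranged from 22.4% GC at Fdx1 to 44.8% at the Hsp83 start, with 37.8% at Hsp27, 29.9% at Hsp26, 28.4% at Hsp22, 31.3% at the Hsp83 intron, 34.8% at gry and 33.3% at SMC1. All 3917 windows had a mean of 34.0% ± 6.79 (SD over windows). Fdx1 and the Hsp83 start were the 2 that lay more than 1 SD from that mean.

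The genes most like Hsp27 were sought by the distance of log10 ranks of their best start-site peaks in both replicates, among 6370 genes with such a peak in both. They were by (blistery, the Drosophila tensin) at ranks 200 and 235, CBP at 202 and 224 and ph-d, a Polycomb group gene, at 198 and 265, against 189 and 238 for Hsp27. With 2 replicates this likeness describes these ranks only.

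Other chaperone genes were followed in lists of 45 names, of which 43 matched the annotation. A reproducible summit within 1000 bp of a start site was found for 12 of the 43, beside 20.8% of all protein-coding genes. Among the other small Hsp and cluster genes it was 1 of 7, CG4456, through the Hsp22 summit. In the Hsp70 family it was 3 of 12: Hsc70-5, the mitochondrial Hsp70, at pooled rank 399 (486 in replicate 1 and 352 in replicate 3), Hsc70-4, the constitutive cytoplasmic Hsp70, at 2644 (3569 and 1861), and Hsc70-1 at 2937 (1982 and 7134), whose summit was nearer to CG13738. Relatives of Hsp60, Hsp10 and Hsp90 had 2 of 7, CG11267 at rank 1732 and Gp93, the Hsp90 of the endoplasmic reticulum, at 2271. Thus the chaperones with the higher ranks here included genes expressed without heat, beside the heat-inducible Hsp27 and Hsp26.

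Co-chaperones and regulators had a reproducible start-site summit in 6 of 17 genes. The J-domain genes mrj and DnaJ-H, partners of Hsp70, stood at ranks 347 (405 in replicate 1 and 331 in replicate 3) and 486 (452 and 476). Sgt stood at 440, stv, a BAG-domain partner of Hsp70, at 758, Droj2 at 2035 with its summit nearer to mRpS21, and CG1416, the Aha1 activator of Hsp90, at 3900 with its summit nearer to step. Hsf, the gene of the heat shock factor itself, had only a lower pooled peak at rank 9699, at rank 7198 in replicate 1 and absent from replicate 3.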

How the data were processed

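Tagged fd3F was mapped by ChIP-seq in 2 biological replicates, labelled with separate biosamples, of 1 group of whole embryos. All 4 peak lists were used as deposited, on build dm6 per the file headers, with 1 list per replicate, 1 pooled and 1 selected for reproducibility by irreproducible discovery rate (IDR). The deposited signal score of each peak was used as given, on its own scale per list. The deposited −log10 q-value was used only for a threshold of 0.05 and for the q-values printed. A summit is the authors' peak start plus the deposited offset, written 1-based. The aligner, the peak caller and the threshold of the IDR step were not given in the sources used here, so how they shape the values is unknown. Depth is unknown.

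Genes came from Ensembl 115 (FlyBase 6.54), and all 8 heat shock genes had the same coordinates in RefSeq. Sequences are from the RefSeq Release 6 genome. Windows, ranks, distances, replicate matches and motif matches (both strands) were computed with Python 3.11.15, pandas 2.3.3, numpy 2.4.6 and scipy 1.17.1, and figures were drawn with matplotlib 3.10.9. The counting steps were tested on simulated peaks. With 1 group no test between groups exists, and genes and peaks are not replicates, so no p-value is given.

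The genes, lists and motifs were chosen with earlier results of these data known. The genes named are the 8 heat shock genes, list genes with a reproducible start-site summit, genes with a start site nearer to a summit, and the 3 genes most like the best-ranked start-site peak. Hsf, DnaJ-1, the Hsp70 copies and the upstream-sequence and rank-ratio comparisons were added after values were seen. Of the list names, Hsp67Bd and Hsp70BC had no match. Alternatives were each replicate alone, other signal thresholds, flanks, start-site distances, overlap rules and motif windows.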

Additional observations from a re-analysis of the deposited data

How the results depend on the processing

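Leaving out a replicate moved the heat shock genes with a start-site summit between 3 and 6, and those with a summit in the extended gene body between 6 and 8. The large chaperone summits moved between 3 and 5, while the small Hsp window held 3 each time. Of the pooled summits, 85.0% overlapped a peak of replicate 1 and 70.0% a peak of replicate 3. These shares need a match in 1 list only, so they cannot fall below the 65.0% matched in both. Without replicate 3 the start-site count was 3 (20.1% of all genes), since the Hsp22 and SMC1 summits ranked 4383 and 5299 in replicate 1. In the upper 1958 reproducible peaks the start-site count was 3 (12.5% of all genes) and the small Hsp window held 2. All pooled peaks gave 7 summits in the small Hsp window and 13 in the large chaperone windows, and those with a q-value of at most 0.05 gave 8 in the latter. In motif windows of 50 bp on each side, the heat shock element was found at 1 summit, GAGAG at 0, TATCGATA at 0 and TATAAA at 1; with 250 bp the heat shock element was found at 4, GAGAG at 4 and TGTTTAC at 2, where wider windows hold more bases. The other 35 such comparisons stayed within 1.5 times or the interval of the value reported. Other flanks changed the best rank of Hsp22 (3309 with 2 kb, 213 with 10 kb), Hsp26 (213 with 10 kb) and Hsp67Ba (1298 with 2 kb), by taking in or leaving out neighbouring summits. With 2 replicates, ranks in each alone are the spread itself and say nothing further about stability. No paired analysis was possible because the samples form 1 group. Depth and the spread beyond 2 replicates limit every value.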

Other observations

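The heat-inducible Hsp70 copies and DnaJ-1 were looked at after values were seen. Of the 6 Hsp70 copies, Hsp70Aa had a pooled peak within 1000 bp of its start site, at rank 13853 and 979 bp upstream, and Hsp70Ab had one in replicate 3 alone, at rank 13231. Hsp70Ba, Hsp70Bb, Hsp70Bbb and Hsp70Bc had none in any list. The copies are nearly identical, and how reads were assigned among them is not given in the sources used here, so these values are uncertain.

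DnaJ-1, the heat-inducible Hsp40 partner of Hsp70, was among the 3917 highest peaks of each replicate and not in the reproducible list. Its peak had signal 66.5 and rank 3690 in replicate 1, with the summit 115 bp downstream of the start site, and signal 66.8 and rank 3195 in replicate 3, with the summit 149 bp upstream. The pooled list held 2 separate peaks there, at ranks 8928 (121 bp downstream) and 10461 (131 bp upstream), with signals of 60.0 and 53.8. The replicates thus placed peaks of like rank on opposite sides of the DnaJ-1 start.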
